A study of Mus musculus with 3 samples.

Results

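The genes of vascular endothelial growth factor (VEGF) signalling were followed in maps of the histone mark H3K27me3 from mouse kidney, as 9 genes of 21887 protein-coding genes placed on the chromosomes. They were the ligand genes Vegfa, Vegfb, Vegfc and Pgf and the receptor genes Flt1, Kdr, Flt4, Nrp1 and Nrp2, taken by name from the RefSeq annotation of GRCm38.p6. For each gene every listed peak that lay over the gene or within 20 kb of it was counted, and this stretch is called the window. The data were ChIP-seq peak lists, made with an antibody from Cell Signaling Technology, from kidney of C57BL/6 mice, 1 from ADA-treated mice (the ADA list) and 1 from untreated mice (the untreated list), beside 1 input sample from untreated mice with no list of its own. ADA is written as in the labels. The number of mice behind a library is not stated in the sources used here. The series title also names mice without SAHH in podocytes, which were not analysed here. With 1 library per group there was no replicate, no test between the groups was made, and every difference below is one between 2 libraries.

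VEGF ligands are secreted proteins that bind receptor tyrosine kinases on endothelial cells. In the glomerulus, the filter of the kidney, podocytes secrete Vegfa and the neighbouring endothelium carries its receptors. H3K27me3 is placed by the Polycomb complex PRC2 and is known from genes that are kept silent, above all at starts of transcription rich in CpG dinucleotides. The material was kidney tissue and not sorted glomeruli, so which cell type carried a peak, and whether fewer cells carried it or each carried less, cannot be told apart.

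ChIP fragments numbered 20602041 with ADA treatment and 18849785 without it, and 17612 and 8074 peaks were listed from them. A peak is described by its fragment pileup, the mean number of sequenced fragments over each of its bases, and by its fold enrichment, the pileup plus 1 over a genome-wide background of 3.24 fragments plus 1. Both are the authors' own values. No listed peak had a pileup under 10, so a gene without a peak had no stretch listed at that level and is not shown to lack the mark. The median listed pileup was 11.6 with ADA treatment, against 10.7 without it. The ADA library thus held 1.09 times the fragments and 2.18 times the peaks of the untreated library.

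The bases around 6 of the 9 starts of transcription are printed here because the peaks are read against them. They run from 250 bases before the first listed start to 50 after it in RefSeq (GRCm38.p6), 5′ to 3′ on the strand of the gene, and CpG dinucleotides are in capitals. Vegfc, Flt1 and Kdr had an ADA peak over this start, Pgf had an untreated one, Vegfa had peaks just downstream of it in both libraries, and Flt4 had none nearer than 15490 bp. The positions are chr17:46032328-46032627 on the minus strand for Vegfa, chr8:54077282-54077581 on the plus strand for Vegfc, chr12:85177264-85177563 on the minus strand for Pgf, chr5:147725962-147726261 on the minus strand for Flt1, chr5:75978406-75978705 on the minus strand for Kdr and chr11:49609429-49609728 on the plus strand for Flt4.
Vegfa: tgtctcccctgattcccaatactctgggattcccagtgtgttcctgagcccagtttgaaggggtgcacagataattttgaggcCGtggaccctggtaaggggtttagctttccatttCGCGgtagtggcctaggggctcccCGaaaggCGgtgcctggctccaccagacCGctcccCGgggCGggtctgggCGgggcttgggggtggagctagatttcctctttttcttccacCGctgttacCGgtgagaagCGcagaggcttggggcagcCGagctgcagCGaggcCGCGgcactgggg
Vegfc: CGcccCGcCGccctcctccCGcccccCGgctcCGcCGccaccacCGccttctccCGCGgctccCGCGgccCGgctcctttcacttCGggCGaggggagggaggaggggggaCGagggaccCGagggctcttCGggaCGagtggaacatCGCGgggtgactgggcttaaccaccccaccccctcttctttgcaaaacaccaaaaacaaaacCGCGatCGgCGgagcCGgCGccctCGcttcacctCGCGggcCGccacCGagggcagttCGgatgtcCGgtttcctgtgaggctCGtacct
Pgf: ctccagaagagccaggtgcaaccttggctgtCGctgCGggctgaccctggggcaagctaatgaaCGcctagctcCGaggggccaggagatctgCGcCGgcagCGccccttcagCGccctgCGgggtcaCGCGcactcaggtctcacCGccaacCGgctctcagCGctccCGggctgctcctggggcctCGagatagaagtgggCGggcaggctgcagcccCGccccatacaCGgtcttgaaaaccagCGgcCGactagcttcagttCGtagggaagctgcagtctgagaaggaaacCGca
Flt1: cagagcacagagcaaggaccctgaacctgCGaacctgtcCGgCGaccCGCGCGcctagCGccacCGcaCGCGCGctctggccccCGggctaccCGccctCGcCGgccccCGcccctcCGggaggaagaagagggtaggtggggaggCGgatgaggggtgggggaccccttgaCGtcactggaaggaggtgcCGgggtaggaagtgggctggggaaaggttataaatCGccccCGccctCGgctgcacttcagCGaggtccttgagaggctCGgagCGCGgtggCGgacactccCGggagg
Kdr: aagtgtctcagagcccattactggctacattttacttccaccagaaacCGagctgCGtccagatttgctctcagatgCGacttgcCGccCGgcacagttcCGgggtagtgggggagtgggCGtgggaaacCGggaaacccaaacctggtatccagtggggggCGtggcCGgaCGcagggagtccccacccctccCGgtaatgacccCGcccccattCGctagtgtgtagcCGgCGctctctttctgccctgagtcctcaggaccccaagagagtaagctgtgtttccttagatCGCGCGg
Flt4: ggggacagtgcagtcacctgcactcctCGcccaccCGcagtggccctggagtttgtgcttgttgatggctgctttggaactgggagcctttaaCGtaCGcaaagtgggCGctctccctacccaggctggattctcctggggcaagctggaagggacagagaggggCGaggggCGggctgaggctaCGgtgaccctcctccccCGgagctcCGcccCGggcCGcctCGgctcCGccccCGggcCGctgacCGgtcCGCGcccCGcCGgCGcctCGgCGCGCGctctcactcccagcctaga

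All 9 genes had a peak in their window in the ADA list, and 6 of 9 had one in the untreated list. Over all protein-coding genes the shares were 61% in the ADA list and 39.3% in the untreated list. Vegfa, Vegfb, Pgf, Flt1, Flt4 and Nrp1 had a peak in both lists, as did 37.1% of all protein-coding genes. Vegfc, Kdr and Nrp2 had a peak in the ADA list alone, and no member had one in the untreated list alone. The windows held 20 ADA and 7 untreated peaks, a ratio of 2.86, against 2.25 over all protein-coding windows. Of these, 17 ADA and 0 untreated peaks had a deposited q, the caller's adjusted p-value, of at most 5%. In the whole lists 10642 of 17612 ADA and 518 of 8074 untreated peaks did. Most members were long genes or had close neighbours, and a longer window has more room for a peak. Windows of the 9 genes were 45.2 to 205 kb long, against a median of 57.2 kb over all protein-coding genes. Per 100 kb of window the members held 1.97 ADA and 0.688 untreated peaks, against 1.71 and 0.758 over all protein-coding windows. Just inside the 20 kb limit lay an ADA peak over Plcb3, 19268 bp from Vegfb, with a pileup of 11.45. Just outside it lay ADA peaks 21360 bp from Pgf and 22171 bp from Vegfa, with pileups of 10.2 and 11.3, and an untreated peak 22346 bp from Flt1, with a pileup of 10.8.

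**Figure D1:**
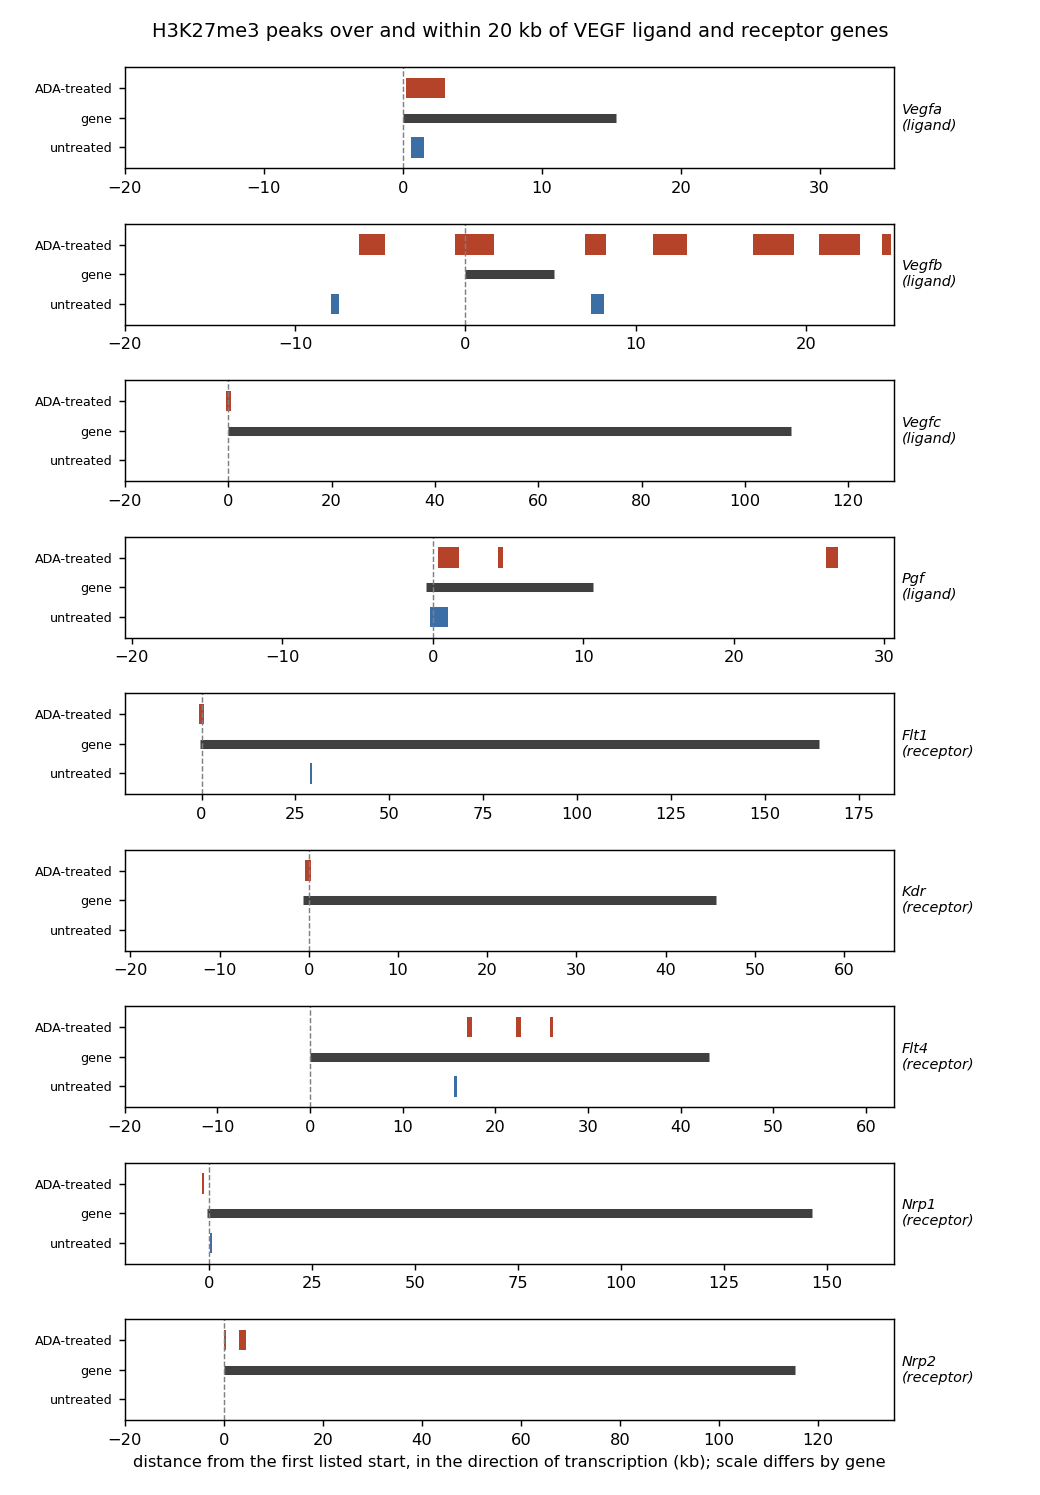
Peaks of the ADA list (red, above the gene) and of the untreated list (blue, below it) in the window of each gene, by distance in kb from the first listed start in the direction of transcription; the dark bar is the gene, the dashed line is the start, and very short peaks are drawn slightly wider than they are. ADA peaks sit at or next to the start in every gene but Flt4, where the nearest begins 16952 bp inside the gene.

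Most of these genes had an ADA peak near the first listed start. One lay within 2 kb of the first listed start in 8 of 9 members, against 43.8% of the 17492 protein-coding genes with a listed start, and the exception was Flt4. In the untreated list 3 of 9 members had such a peak (Vegfa, Pgf and Nrp1), against 20.1% of genes. The 2 kb limit was chosen after the values were seen, so these counts describe the members and do not test them. The start itself was covered by an ADA peak in 4 of 9 members (Vegfb, Vegfc, Flt1 and Kdr), against 34.9% of genes. It was covered by an untreated peak in 1 of 9 (Pgf), against 12.1% of genes. Over the whole ADA list, 38.9% of peak midpoints lay within 1 kb of a listed start. The first starts of all 9 members held more CpG dinucleotides than the median start, and over all genes such starts were more often under a peak. The part of CpG in these counts was not tested.

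Vegfa, the main angiogenic ligand, lies at chromosome 17, 46016993 to 46032377, on the minus strand (GRCm38), with no other protein-coding gene in its window. Its only ADA peak ran from 46029354 to 46032153, 2800 bp long and wholly inside the gene, and had a pileup of 16.0 and a fold enrichment of 4.02. The only untreated peak ran from 46030817 to 46031762, with a pileup of 10.9, a fold enrichment of 2.80 and a deposited q of 30.2%. The untreated peak lay wholly inside the ADA one, so both libraries marked the same first stretch of the gene, 224 bp (ADA) and 615 bp (untreated) downstream of the first listed start. A second listed start, at 46025163, had no peak over it in either list. In the ADA list 90.1% of all peaks had a lower pileup than that of Vegfa, and in the untreated list 56.1% had a lower one.

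Vegfb, a ligand that binds Flt1, lies in the gene-dense stretch of chromosome 19 from 6982472 to 6987651, with 8 other protein-coding genes in its window. The window held 7 ADA and 2 untreated peaks, the most of any member. Of these, 1 ADA peak touched Vegfb itself. It ran from 6985968 to 6988279 over the start of Vegfb and into the neighbour Dnajc4, with a pileup of 12.5. The strongest peak of any member window lay outside the gene, 1843 bp from Vegfb, over the immunophilin gene Fkbp2 and the protein-coding gene LOC114841036, and cannot be assigned to either. It had a pileup of 20.6 in the ADA list (6979379 to 6980629) and 10.7 in the untreated list (6979529 to 6980304). The other ADA peaks lay over Plcb3, Ppp1r14b, Dnajc4 and Nudt22 and the noncoding genes Gm52400 and Gm35838, with pileups of 10.6 to 11.9, and the other untreated peak lay over Nudt22, with a pileup of 11.6. No untreated peak lay over Vegfb.

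Vegfc, the ligand of Flt4 that drives growth of lymphatic vessels, spans chromosome 8, 54077532 to 54186454, on the plus strand. Its 1 ADA peak, 54077117 to 54078032, lay over the start, with a pileup of 13.6 and a fold enrichment of 3.44. The peak also lay over the neighbouring annotated gene Gm33153 and cannot be assigned to either. No untreated peak lay in the window, and the nearest in that list was 1037909 bp from the start.

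Pgf, placental growth factor, which binds Flt1, lies at chromosome 12, 85166637 to 85177785, on the minus strand. It was the only member whose first listed start was under an untreated peak, which ran from 85176291 to 85177523 with a pileup of 11.6. The ADA peak at this end of the gene ran from 85175596 to 85176946 with a pileup of 13.7. It began 367 bp downstream of the first listed start and covered the other listed start at 85175982, so the libraries marked neighbouring stretches that shared 656 bp. Another ADA peak of 299 bp lay inside the gene with a pileup of 12.2, and the last lay 15436 bp away over Rps6kl1 with a pileup of 10.04.

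Flt1, a receptor with high affinity for Vegfa that also exists as a soluble trap, had the strongest peak over any member gene. The gene lies at chromosome 5, 147561604 to 147726438, on the minus strand. The ADA peak ran from 147725270 to 147726697 over the start, with a pileup of 17.2 and a fold enrichment of 4.29, above 94.0% of that list. The untreated list had no peak at the start. Its only peak in the window, 147696499 to 147697106, lay 28905 bp inside the gene at the smallest listed pileup of 10, with a deposited q of 55.3%. Flt1 therefore counts as marked in both lists, yet at different places.

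Kdr, the main signalling receptor for Vegfa on endothelium, lies on the same chromosome at 75932827 to 75979072, on the minus strand. Its 1 ADA peak, 75978191 to 75978871, lay over the start with a pileup of 12.8 and a fold enrichment of 3.27. The peak also lay over the noncoding gene Gm32727. No untreated peak lay in the window, and the nearest was 325505 bp from the start.

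Flt4, the receptor for Vegfc known from lymphatic endothelium, differed from the other members in where its peaks lay. The gene lies at chromosome 11, 49609679 to 49652739, on the plus strand. Its 3 ADA peaks lay inside the gene, 16952, 22260 and 25937 bp downstream of the start, with pileups of 13.7, 11.9 and 11.1. The 1 untreated peak lay 15490 bp downstream of the start with a pileup of 11.0 and overlapped none of them. All 4 peaks were short, 329 to 541 bp long.

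The neuropilin genes Nrp1 and Nrp2 encode receptors shared by VEGF ligands and semaphorins, and each of their listed peaks had a pileup of 11.6 or less. Nrp1 lies at chromosome 8, 128358591 to 128505476, on the plus strand. Its ADA peak, 128357384 to 128357855, lay 736 bp outside the gene over the noncoding gene A930035F09Rik, with a pileup of 11.4. Its untreated peak, 128359258 to 128359704, began 185 bp downstream of the first listed start, over the microRNA gene Mir1903, at the smallest listed pileup of 10. The peaks of the libraries flanked the start of Nrp1 and did not overlap. Nrp2 lies at chromosome 1, 62703317 to 62818692, on the plus strand, and had 2 ADA peaks, beginning 61 and 3067 bp downstream of the start with pileups of 11.6 and 10.9. The untreated list had none in the window of Nrp2, and its nearest peak was 410140 bp from the start.

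**Figure D2:**
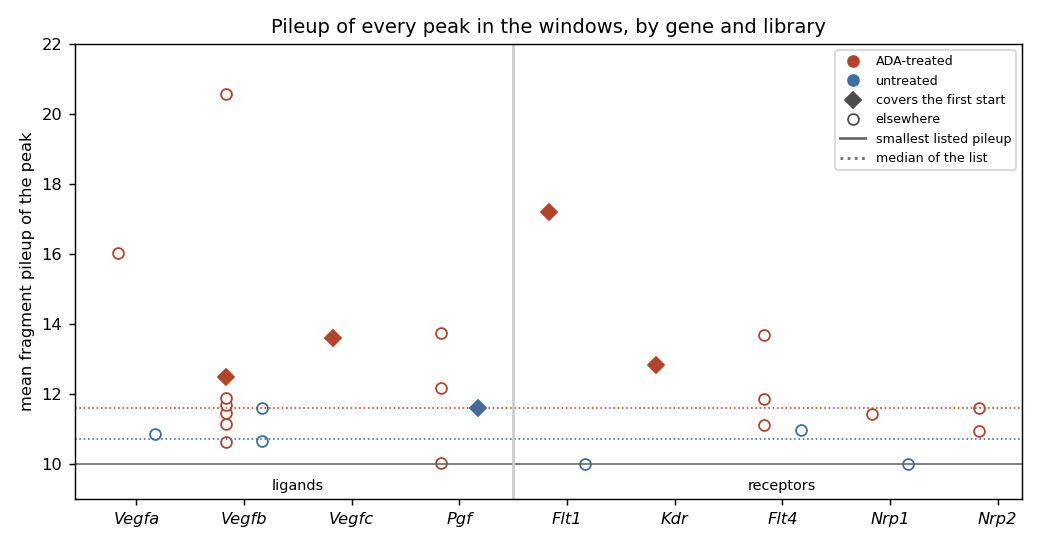
Mean fragment pileup of every peak in the windows of the 9 genes (y axis, from 9 upward), ADA-treated in red on the left and untreated in blue on the right of each gene; filled diamonds cover the first listed start, open circles lie elsewhere, the grey line is the smallest listed pileup of 10, and the dotted lines are the list medians of 11.6 (ADA) and 10.7 (untreated). The ADA peaks reach 20.6 beside Vegfb and 17.2 at Flt1, while all 7 untreated peaks lie between 10 and 11.6.

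Ligand windows held more peaks than receptor windows per length in both libraries, and the window of Vegfb held 7 of the 12 ADA and 2 of the 4 untreated ligand peaks. In the ADA list all 4 ligand genes and all 5 receptor genes had a peak. In the untreated list 3 of 4 ligand genes and 3 of 5 receptor genes had one. The ligand windows, 301 kb in all, held 12 ADA and 4 untreated peaks, and the receptor windows, 716 kb in all, held 8 and 3. Per 100 kb this gave 3.99 (95% Poisson interval 2.06 to 6.97) for ligands and 1.12 (0.482 to 2.20) for receptors in the ADA list. In the untreated list it gave 1.33 (0.363 to 3.41) and 0.419 (0.0864 to 1.22). These intervals overlap in each library, and they treat peaks of 1 gene as independent. Without Vegfb the ligand values were 1.96 in the ADA list and 0.783 in the untreated list. Of the 12 ADA ligand peaks, 7 lay over a neighbouring protein-coding gene and not over the ligand gene, against 0 of 8 receptor peaks.

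**Figure D3:**
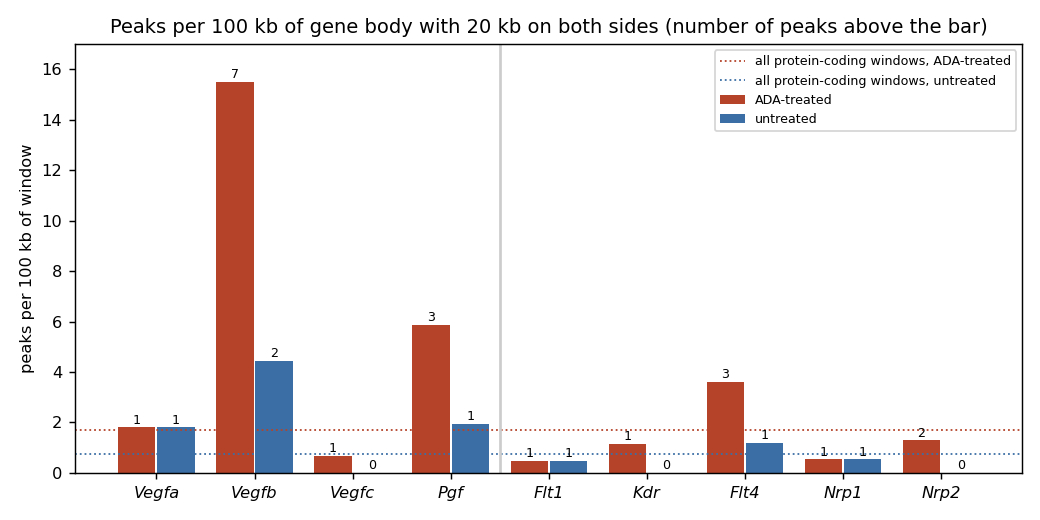
Peaks per 100 kb of window for each gene (bars from 0, ADA-treated in red left of untreated in blue), with the number of peaks above each bar and the value over all protein-coding windows as dotted lines (1.71 ADA-treated, 0.758 untreated). Vegfb stands far above the others in both libraries with 15.5 and 4.43 peaks per 100 kb, and Vegfc, Flt1, Kdr, Nrp1 and Nrp2 lie below the line of the library in both.

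Ligand peaks had a higher median pileup than receptor peaks in both lists, with or without the window of Vegfb. The median pileup of ligand peaks was 12.025 and that of receptor peaks 11.7 in the ADA list. Without Vegfb the ligand median in that list was 13.6, with 4 of 5 peaks at a pileup of 12 or more, against 3 of 8 receptor peaks. In the untreated list the ligand median was 11.2 with or without Vegfb, against 10 for receptor peaks. Over the members with a peak, the strongest fold enrichment per gene had a median of 3.46 in the ADA list and 2.81 in the untreated list, against 3.43 and 2.86 over all protein-coding genes with a peak. The members with a peak were thus near other genes with a peak in its strength. With only peaks whose pileup reached 12, 7 of 9 members kept an ADA peak and 0 of 9 an untreated one, against 45.2% and 8.99% of all protein-coding genes. The members that lost theirs in the ADA list were the neuropilin genes Nrp1 and Nrp2.

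Peaks of the libraries overlapped at 3 places in these windows, at Vegfa, at Pgf and at Fkbp2 and LOC114841036 beside Vegfb, and all 3 were in ligand windows. None of the 8 ADA or 3 untreated receptor peaks overlapped a peak of the other list. How many of all listed peaks overlap the other list was not counted. These few overlaps therefore have no share to be read against, and no contrast between ligands and receptors is drawn from them. The precision of a single library was estimated from the number of fragments a peak holds (pileup times length over mean fragment length), with an exact Poisson interval at 95%. This interval covers counting error only and takes the whole listed length as covered, so it may be too narrow. A second interval took the pileup, rounded, as a count at a single base. Each pileup below is a mean over the peak of its own library, so the stretches compared differ, such as 2800 bp (ADA) and 946 bp (untreated) at Vegfa. At Vegfa the pileup was 16.0 (13.6 to 18.8) with ADA treatment, against 10.9 (7.43 to 15.3) without it. At Pgf it was 13.7 (10.6 to 17.6) in the ADA library, against 11.6 (8.45 to 15.5) in the untreated one, so in both genes the length-based intervals overlapped. At Fkbp2 and LOC114841036 it was 20.6 (16.5 to 25.4) in the ADA library, against 10.7 (6.96 to 15.6) in the untreated one, which did not overlap by length, while the single-base intervals of 13.0 to 32.1 (ADA) and 5.49 to 19.7 (untreated) did. At the start of Flt1 the ADA interval was 13.7 to 21.3 by length, above the smallest listed pileup of 10, and 9.90 to 27.2 at a single base, which reaches below it. At the starts of Vegfc and Kdr it was 9.79 to 18.4 and 8.66 to 18.3 by length, which reach below 10. Of the 17 ADA peaks without an untreated partner, 2 (Flt1 and the start of Vegfb) had an interval wholly above 10 by length and none had one at a single base. Every listed peak had a pileup of at least 10 by selection, and the untreated pileup at these places is not known. Setting an interval against 10 therefore does not compare the libraries.

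By number of CpG, the first listed starts of all 9 members lay above the median start. By the ratio of this number to that expected from the C and G present, Vegfa (0.563) and Nrp1 (0.474) lay below the median of 0.576, and the other members above it. Their 300 bases held 14 (Nrp1) to 37 (Nrp2) CpG dinucleotides, against a median of 13 over 17492 protein-coding starts. Of the printed bases, those of Kdr held 19, Flt4 26, Flt1 29 and Vegfc 35, each in capitals, and Vegfb had 31. Over all genes, the share of starts under a peak climbed with CpG number. Of starts with 25 to 65 CpG, 80.0% were under an ADA peak and 32.3% under an untreated one. With 14 to 24 CpG these shares were 47.8% and 13.1%. Of the 5 members with 25 or more, 3 had an ADA peak over the start (Flt1, Vegfb and Vegfc) and 0 an untreated one. Flt4 and Nrp2 were the CpG-rich members whose start was not covered, although the nearest ADA peak of Nrp2 was 61 bp away. Of the 4 with fewer than 25, Kdr was covered in the ADA list and Pgf in the untreated list.

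**Figure D4:**
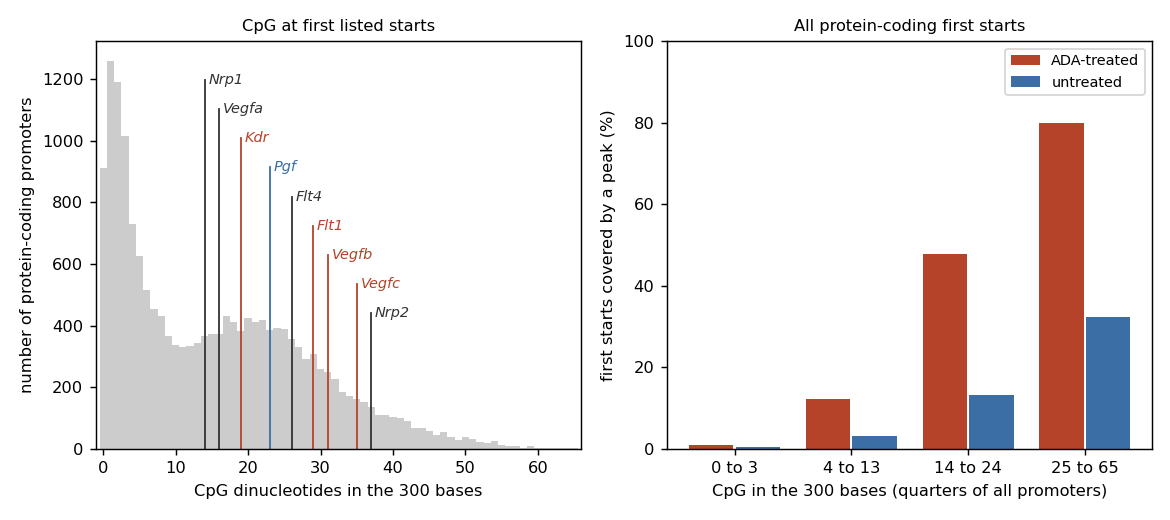
Left, number of protein-coding promoters (y axis) by CpG dinucleotides in the 300 bases around the first listed start (x axis), with the 9 genes marked in red where an ADA peak covers the start, in blue where an untreated one does, and in black where neither does. Right, percentage of all first starts under a peak in each of 4 classes of CpG number, ADA-treated in red and untreated in blue, which reaches 80.0% and 32.3% at 25 to 65 CpG.

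Short motifs were also counted in these 300 bases on both strands. GGGCGG, the GC box bound by Sp1 family factors, was found in the first promoter of all 9 members, with 1 (Nrp1) to 5 (Nrp2) matches, and in 46.3% of all protein-coding promoters. CCGGAA, a core bound by ETS factors, was found in Kdr alone of the members and in 19.1% of all promoters. ACGTG, one form of the hypoxia response core RCGTG (R is A or G), was found in no first promoter of a member and in 20.7% of all promoters. The other form, GCGTG, was not counted over all promoters. Read on either strand, it occurs in the printed bases of Pgf, Flt1 and Kdr. It also occurs in the first promoters of Vegfb, Nrp1 and Nrp2, which are not printed. The count of ACGTG therefore does not show that the members lack the core. ACGTG had 1 match before the second listed start of Vegfa. A match is a run of letters and not a binding site, and windows other than these were not searched.

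Genes that act with the VEGF system were counted by the same rule, from 8 lists. Every one of 22 genes of receptor signal transduction had an ADA peak in its window, and 15 of 22 had an untreated one, or 100% and 68.2%, against 61% (ADA) and 39.3% (untreated) of all protein-coding genes. The first listed start was covered in 13 of 22 by an ADA peak and in 8 of 22 by an untreated one, against 34.9% and 12.1% of genes with a listed start. Plcg1, the phospholipase activated by Kdr, had the strongest fold enrichment of this list, 5.50 in the ADA list and 2.97 in the untreated list. The adaptors Pxn and Shb had 4.99 and 4.98 in the ADA list, and 2.87 and 3.03 in the untreated list. The kinase genes Map2k1 and Mapk3 had a peak in the ADA list alone, at 3.80 and 3.39. The median of the strongest fold enrichment per gene was 3.81 in the ADA list and 2.98 in the untreated list. These windows reach 20 kb past a gene, so a peak can lie over a neighbour, and a list was not compared with others by a test.

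Of 8 genes made up of regulators of VEGF expression and the further ligand gene Vegfd, 5 had an ADA and 4 an untreated peak. These are 62.5% and 50%, and the ADA share is near the 61% of all protein-coding genes, against 39.3% in the untreated list. Hif1a and Epas1, the hypoxia-inducible factors, had 4.25 and 4.12 in the ADA list, and 2.80 and 2.73 in the untreated list. Egln1, a prolyl hydroxylase that marks them for destruction, had 3.50 in the ADA list and 2.73 in the untreated list. Egln2, another hydroxylase, and Vhl, which recognises the hydroxylated factors, had a peak in the ADA list alone, at 4.04 and 3.72, and Egln3 had one in the untreated list alone, at 2.77. Vegfd, the remaining ligand of Flt4, and Arnt had none in either list. Of 12 plexin and semaphorin genes, many of which signal with neuropilins, 8 had an ADA and 7 an untreated peak, or 66.7% and 58.3%. Plxna1, Plxnd1 and Sema3f had 4.59, 4.35 and 3.48 in the ADA list, and 2.83, 3.06 and 3.01 in the untreated list. Sema3c had 3.12 in the ADA list alone. Plxna3, Sema3a, Sema3d and Sema3e had none in either list.

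Shares of other vascular genes are again read against 61% (ADA) and 39.3% (untreated) of all protein-coding genes. Of 18 genes of angiopoietin, Notch and related signalling, 14 had an ADA and 13 an untreated peak (77.8% and 72.2%), with medians of the strongest fold enrichment of 3.81 (ADA) and 2.88 (untreated). Pdgfrb, a pericyte and mesangial receptor, Notch4 and the Notch target Hey1 had 5.20, 4.70 and 4.61 in the ADA list, against 2.73, 3.16 and 3.06 in the untreated list. Ephb4, a venous receptor, had 3.81 in the ADA list alone. The endothelial receptor Tek, its ligands Angpt1 and Angpt2, and S1pr1 had no peak in either list. Of 17 endothelial transcription factors and markers, 13 had an ADA and 8 an untreated peak, or 76.5% and 47.1%. The transcription factor genes Klf4, Sox17 and Sox18 had 4.31, 3.99 and 3.69 in the ADA list, and 2.67, 2.74 and 2.78 in the untreated list. Tal1, Fli1 and Sox7 had a peak in the ADA list alone, at 3.72, 3.25 and 3.18, and Erg in the untreated list alone, at 2.87. The surface proteins Cdh5 and Emcn and the glomerular endothelial gene Ehd3 had no peak in either list. Other markers of this list did have a peak. The endothelial adhesion gene Pecam1, Plat and Esam had 3.04, 2.93 and 2.60 in the ADA list alone. Plvap had 3.36 in the ADA list and 2.60 in the untreated list.

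Cell type lists gave lymphatic, podocyte and tubular genes beside the VEGF genes. Of 5 lymphatic markers, 3 had an ADA and 2 an untreated peak, and these 60% and 40% lie near the shares of all protein-coding genes, 61% and 39.3%. Prox1, the lymphatic master regulator, had 2.72 in the ADA list and 2.73 in the untreated list, Reln 3.42 (ADA) and 3.02 (untreated), and Pdpn 2.90 in the ADA list alone. Lyve1 and Ccl21a had no peak in either list. Of 12 podocyte genes, 10 had an ADA and 7 an untreated peak (83.3% and 58.3%), with medians of 3.43 (ADA) and 2.77 (untreated). The slit diaphragm gene Nphs1 had 3.50 in the ADA list and 3.29 in the untreated list. Plce1 and Magi2 had 4.16 and 3.47 in the ADA list, and 2.69 and 2.77 in the untreated list, while Cd2ap and Kirrel had 4.16 and 3.09 in the ADA list alone. Ptpro and Tcf21 had no peak in either list. Of 8 proximal tubule genes, 4 had a peak in each list (50% in both), with medians of 2.83 (ADA) and 2.67 (untreated). Slc34a1 and Slc5a2 had 2.88 and 2.77 in the ADA list, and 2.69 and 2.65 in the untreated list. Lrp2 and Aqp1 had a peak in the ADA list alone, at 3.03 and 2.76, and Slc22a6 and Hnf4a in the untreated list alone, at 2.89 and 2.66. Cubn and Slc5a12 had no peak in either list. Since H3K27me3 marks silent genes in part of the cells of a tissue, these lists do not check the labelled tissue.

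**Figure D5:**
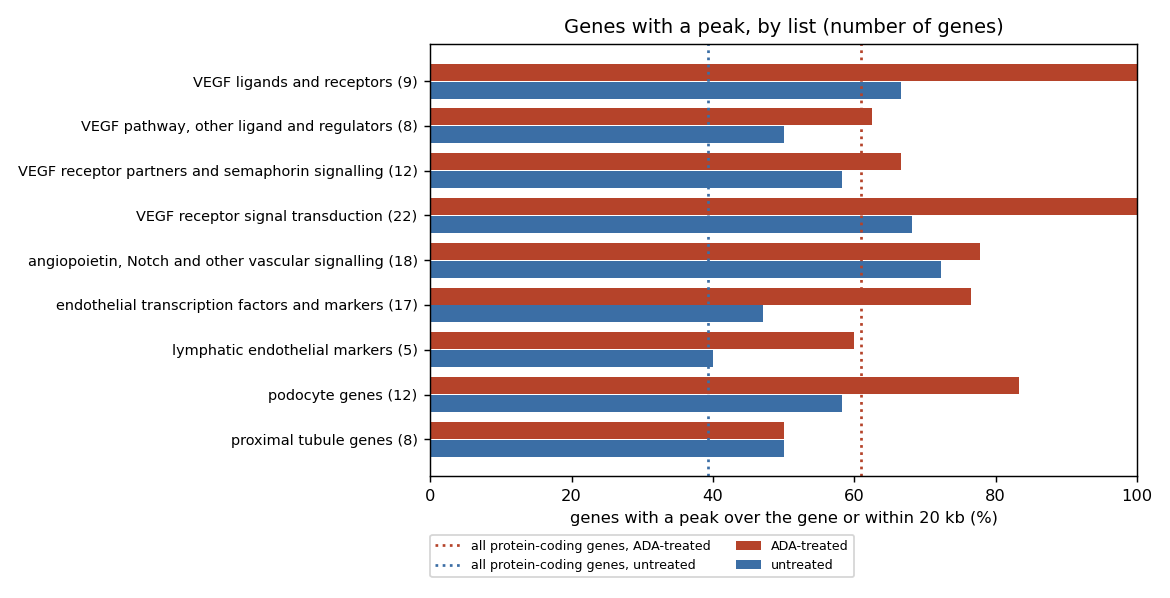
Percentage of genes with a peak over the gene or within 20 kb (x axis, from 0) for the VEGF genes and 8 lists, with the number of genes in brackets, ADA-treated in red above untreated in blue, and dotted lines at the shares of all protein-coding genes, 61% and 39.3%. The VEGF genes and the signal transduction genes reach 100% in the ADA list, and proximal tubule genes lie at 50% in both.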

How the data were processed

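The treatment and antibody labels gave the groups of the kidney H3K27me3 ChIP-seq samples. MACS 2.1.2 made each peak list from 1 library and an input named beside it, per the file headers, with paired-end fragments, broad regions, a p threshold of 0.001, all duplicates kept and no local background. The headers give mean fragment lengths of 293 bp (ADA) and 321 bp (untreated), and inputs of 22100010 and 23891586 fragments. Which of these inputs the labelled one is was not settled. For every peak the deposited columns used were the pileup signal, the fold enrichment ratio, the −log10 p and the −log10 q. The headers say that q would not be calculated, yet the deposited q column holds values, which were used as they are. No source used here names an aligner, and mm9 and CASAVA 1.4 come from the submitters' processing notes.

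Coordinates are 1-based and taken as GRCm38. Of the peak midpoints, 38.9% (ADA) and 38.2% (untreated) lay within 1 kb of a GRCm38.p6 start, against 3.03 to 3.73% with starts shifted by 10 kb, so the build in the notes was not used. The gene table gives no exons, so exons, introns and untranslated regions are not told apart.

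The members and lists were chosen with earlier results of these data known. All 9 members are named, with genes under their peaks. Per list, the named genes are the 3 of largest fold enrichment with a peak in both libraries, in the ADA one alone and in the untreated one alone. Some genes that this rule names are not reported here. List genes without a peak and the markers Pecam1, Plat, Esam and Plvap were picked after their values were seen. So were the counts within 2 kb of a start and at a pileup of 12. Overlap meant at least 1 bp. Python 3.11.15, numpy 2.4.6, pandas 2.3.3, scipy 1.17.1 and matplotlib 3.10.9 were used. The counting was tested on simulated data (200 of 200 planted genes found) and against bedtools 2.31.1 (21631 of 21631 windows equal). Alternatives were other windows, stricter peaks, lists of equal length, merged peaks and stricter overlap.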

Additional observations from a re-analysis of the deposited data

How the results depend on the processing

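No paired analysis was possible because each group had 1 library, and for the same reason no library could be left out. With a caller −log10 p of at least 5, 7 ADA peaks and 3 receptors with one were left, ligand windows held 1.33 and receptor windows 0.419 ADA peaks per 100 kb, and untreated values were 0 for members, ligands, receptors, peaks, ligand peaks per 100 kb and receptor peaks per 100 kb. Of all protein-coding genes, 37.7% (ADA) and 3.74% (untreated) had such a peak. With a fold enrichment of at least 4, 3 ADA peaks lay at 3 members, of which 2 were ligands and 1 a receptor, with 0.665 and 0.140 ADA peaks per 100 kb, and all those untreated values were 0, against 13.9% (ADA) and 0.201% (untreated) of all protein-coding genes. With a deposited q of at most 5%, 9 of 9 members kept an ADA peak and all those untreated values were 0, against 52.9% and 4.2% of all protein-coding genes. At these 3 thresholds the share of all genes with an untreated peak is low, and 0 of 9 is near it. With a pileup of at least 12, an alternative chosen after seeing the data, 9 ADA peaks and 3 receptors remained, and untreated members, ligands, receptors and peaks were 0.

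The gene alone as window left 12 ADA peaks, and 50 kb on both sides gave 12 untreated peaks. Within 2 kb of a gene end there were 9 ADA and 3 untreated peaks, the untreated ones at 3 members with 1 receptor. For these other windows the share of all protein-coding genes was not counted, so the member counts have nothing to be read against. Without peaks over a neighbouring protein-coding gene alone, also chosen after seeing the data, 13 ADA peaks remained. With the ADA list cut to the length of the untreated list, 7 members kept an ADA peak, against 6 with an untreated one. At that length 11 ADA peaks remained, and 3 receptors had a peak in each list. The share of all protein-coding genes was not counted at that length. At 50% overlap of both peaks, 1 peak of each list was shared. The cause of these differences was not tested. In every alternative above that gave a count for both libraries, untreated members with a peak were no more than ADA members. Because the full ADA list holds 2.18 times the peaks of the untreated one, this order says little about these genes. The smallest listed pileup of 10 limits what a missing peak shows. The untreated library held fewer fragments but longer ones (321 bp, against 293 bp), and the genome-wide background was 3.24 fragments in both libraries. Whether depth bears on the missing peaks was not tested.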
